A study of Macaca mulatta with 22 samples.

Results

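The genes described here are the numbered zinc finger genes of rhesus macaque chromosome 19, followed through oocyte maturation and early embryo development. Members were all entries of the deposited expression table that lie on chromosome 19, carry a symbol made of ZNF and a number, and reached 1 RPKM (a read count scaled by the gene's length and the library's mapped reads) in at least 2 of 22 libraries. Of 245 such entries, 200 passed, out of 35468 entries in the table and 14312 that passed the same filter. The other 45 stayed below it, and 9 of those were listed at 0 in every library. Of the 200, 15 reached 1 RPKM in exactly 2 libraries. The filter's edge ran between ZNF582-AS1 (IMMRNTR1325), ZNF880 and ZNF471, whose second highest libraries held 1.001, 1.10 and 1.115 RPKM, and ZNF836 (IMMRNTR1132), ZNF793 and ZNF568 (IMMRNTR1282) at 0.977, 0.967 and 0.955 RPKM. ZNF582-AS1 is by its name an antisense RNA, which the symbol rule took in.

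Most numbered ZNF genes of primate chromosome 19 encode proteins with arrays of C2H2 zinc fingers, each finger reading a few bases of DNA, and many also carry a KRAB domain. KRAB recruits TRIM28 (also called KAP1), which brings the histone methyltransferase SETDB1, HP1 proteins and DNA methylation to the bound site, often a transposable element. The family grew by tandem duplication and sits in clusters, so neighbouring genes are often close copies of each other.

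Each library was made from the whole lysate of 1 oocyte or 1 embryo, amplified with the SMARTer low input kit. The oocytes came post mortem from superovulated donors and were at the germinal vesicle stage (GV, n = 2), metaphase I (MI, n = 2) or metaphase II (MII, n = 3). The embryos were made by intracytoplasmic sperm injection and cultured in vitro to the pronuclear stage (PN, n = 3), 2 cells (2C, n = 2), 4 cells (4C, n = 3), 8 cells (8C, n = 2), the morula (Mo, n = 3) or the blastocyst (Bl, n = 2). The labels name no strain, age, donor or parent for any library and no treatment beyond these, so libraries of a stage may share a mother, and p-values measure the spread between libraries. RPKM is a share of a library's reads: a gene rises when other transcripts are lost, and less RNA per embryo cannot be told from less of a transcript per cell.

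The step that 1 read adds to low values put the libraries at an estimated 5600000 reads (8C replicate 2) to 21855000 reads (PN replicate 2), from 9 to 37 values a library. Stage markers followed the labels: 5 oocyte genes (GDF9, BMP15, ZP2, ZP3, FIGLA) summed to 355 RPKM or more in every library up to 4C and to 8.96 RPKM or less in morulae and blastocysts, and 3 trophectoderm genes summed to 912 RPKM or more in both blastocysts. A list of 10 follicle cell genes summed to 24.5 to 206 RPKM up to 4C, most of it GATM, with AMH and FOXL2 at 0 in all libraries, and the leukocyte genes PTPRC at 0 and CD14 and LYZ at 11.1 RPKM together or less. Morula replicate 2 stood apart, with 4277 entries at 1 RPKM or more against 6763 to 10017 in the other 21 libraries, and 60 of the 200 members at that level against 111 to 170.

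The 200 entries carried 168 symbols, since 29 symbols had several entries. An entry was named by its Ensembl identifier where the reference table held one (94 members) and otherwise by the file. Ensembl identifiers were held by 159 members, and those outside the 94 took the file's name unchecked. For 27 of the 94 the file's name differed or was missing, and for 14 of these it was another ZNF name. For 41 members the identifier begins with IMMRNTR, and their names could not be checked. Of the 29 repeated symbols, 18 had entries that peaked in different periods. The longer ZNF878 entry (IMMRNTR1216, positions 11755335 to 11808386) was highest at GV, with 46.9 ± 3.87 RPKM (SD, n = 2), while ZNF878 (ENSMMUG00000012586, 11805177 to 11808082), which lies inside it, was highest at 8C with 182 ± 206 RPKM (SD, n = 2). Spans of 31 members overlap another member, the library kit is not stated to keep strand, and close copies share reads, so the split of reads among such entries is uncertain. Positions are those deposited, in a file that names no build.

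Members were sorted into 3 classes by the stage with the highest mean RPKM. The maternal class (highest from GV to 4C) held 93 members, the 8C class 84 and the later class (Mo or Bl) 23. By single stage, the peak was GV for 21 members, MI for 22, MII for 8, PN for 21, 2C for 10, 4C for 11, Mo for 19 and Bl for 4. The classes were read from the same values they describe and carry no test. They rested on 1 library to a large extent: without 8C replicate 1 the counts became 114 maternal, 38 at 8C and 48 later, and 35 of the 84 kept their 8C class.

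**Figure D1:**
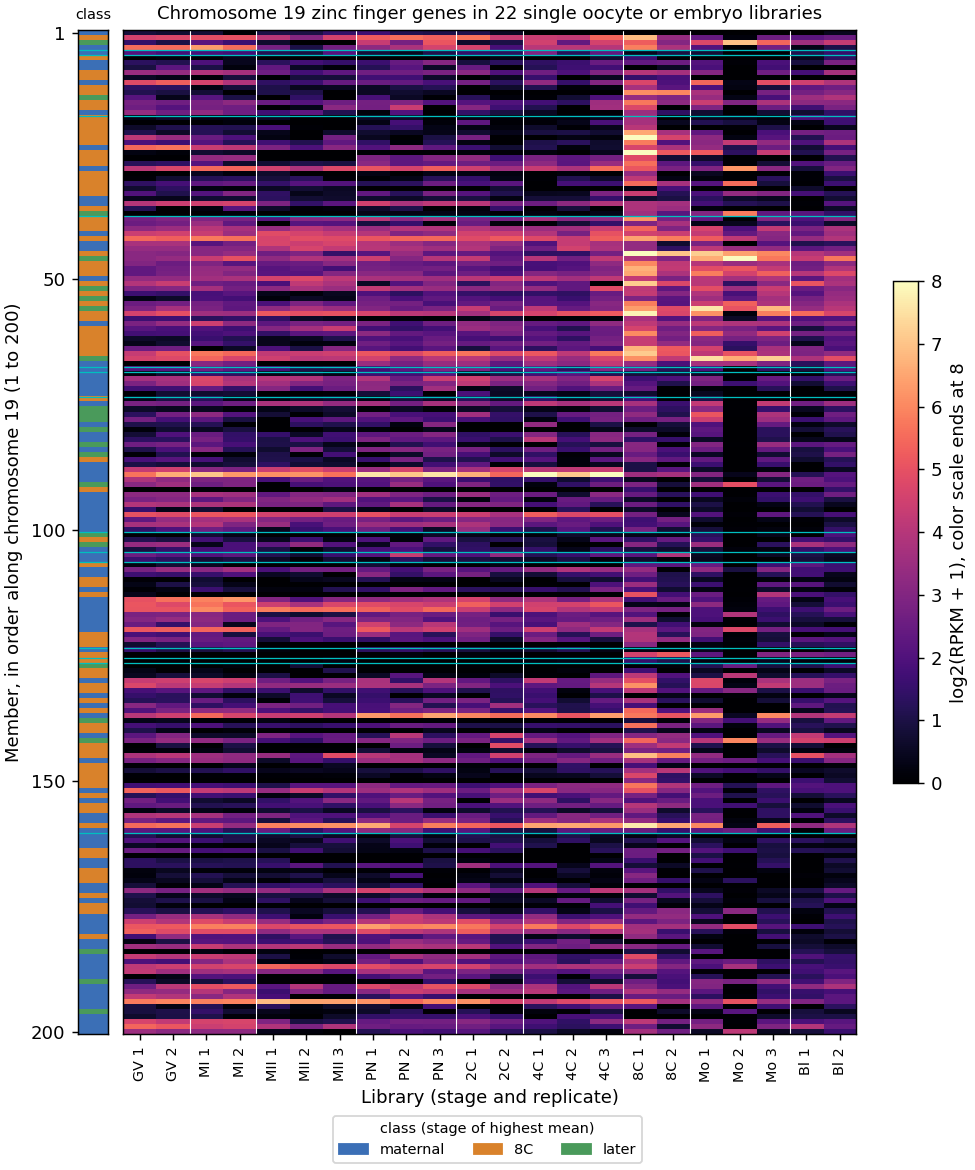
Level of each of the 200 members (rows, in order along chromosome 19) in each library (columns), as log2(RPKM + 1), with the class of each member in the strip on the left and lines between clusters. Members in the upper part are brightest in 8C replicate 1 and many in morula replicate 2 are at or near 0, while a few rows in the lower part are bright from GV to 4C and dark from 8C on.

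Of the 2 embryos labelled 8C, replicate 1 was the higher for a larger share of these genes than of the whole table. The median differences below keep their sign, so the size of differences in either direction was not compared. The members summed to 5264.5 RPKM in replicate 1 and to 1385.0 RPKM in replicate 2, against 644 to 1980 RPKM in the other 20 libraries. Replicate 1 was the higher of the pair for 161 members (80.5%), with a median log2 difference of 1.24. Over all entries tested replicate 1 was higher for 50.7%, with a median of 0.02. The same share was 62.0% (median 0.34) for 216 numbered ZNF entries of other chromosomes, 41.6% (median 0) for the other 627 tested entries of chromosome 19, and 63.0% (median 0.38) for the 1989 entries called higher at 8C than at 4C.

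Sums of marker lists were closer in the 8C embryos than the sums of the members, while single markers differed in both directions. Activation genes (DUXA, LEUTX, ZSCAN4 and KLF17, which switch on with the embryo's own genome) summed to 5092 to 5858 RPKM in both 8C embryos and to at most 13.6 RPKM in any earlier library, and the follicle cell list stood at 31.9 and 33.9 RPKM. Most of the activation sum was DUXA, with 4272 and 3172 RPKM in replicates 1 and 2. The follicle sum was mostly GATM, with 23.4 and 31.5 RPKM in that order, while NR5A2 held 6.45 and 2.26 RPKM. The oocyte list summed to 148 and 102 RPKM and the trophectoderm list to 4.13 and 2.13 RPKM. A list of inner cell genes (NANOG, SOX2 and POU5F1) summed to 22.5 and 13.1 RPKM. ZSCAN4 held 728 and 361 RPKM, LEUTX 805 and 1528 RPKM, the oocyte gene ZP2 69.2 and 24.9 RPKM and NANOG 17.4 and 5.77 RPKM. Estimated depth was 20500000 reads in replicate 1 and 5600000 reads in replicate 2, and 6 and 23 members were listed at 0. Whether depth bears on the difference was not tested. Replicate 1 was the highest of all 22 libraries for 76 members and replicate 2 for 10.

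**Figure D2:**
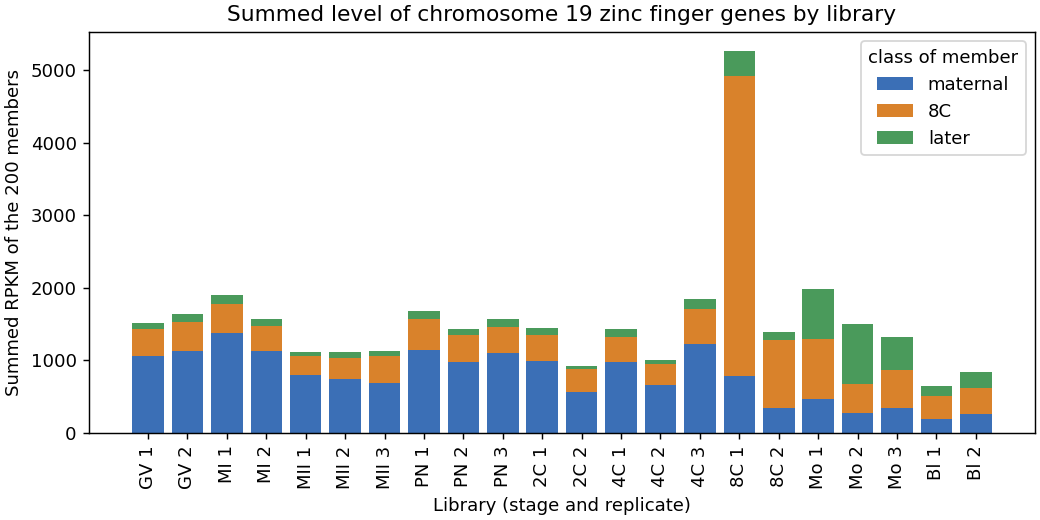
Summed RPKM of the 200 members in each library (bars), stacked by class. 8C replicate 1 reaches 5264.5 RPKM, of which 4141.5 RPKM comes from the 8C class, while every other library stays at or below 1980 RPKM.

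**Figure D3:**
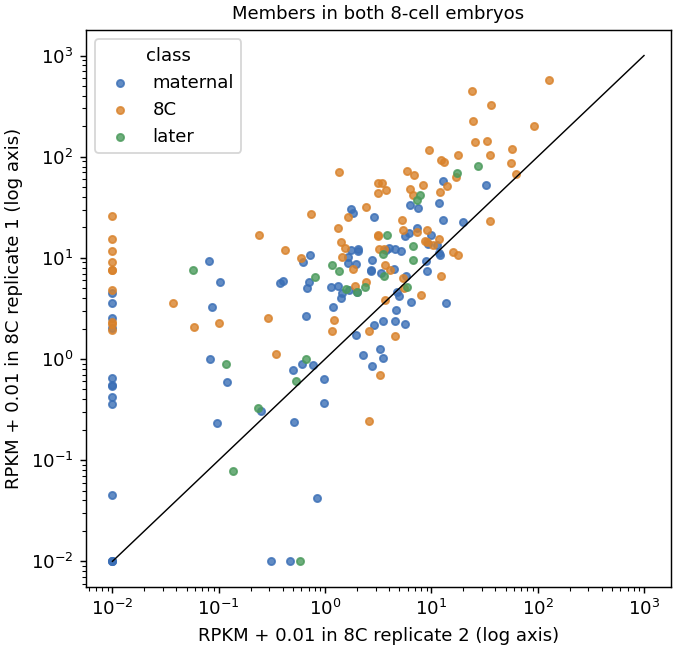
RPKM (plus 0.01, log axes) of each member in 8C replicate 2 (x) and replicate 1 (y), colored by class, with the line of equality. Of the 200 points, 161 lie above the line.

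Because of this pair, members with both 8C embryos above each of the other 20 libraries were listed apart, again as a description. There were 21 (10.5%), against 5.45% of all entries tested, 9.25% of the other entries of chromosome 19 and 11.1% of the numbered ZNF entries elsewhere. They include ZNF121, ZNF114, ZNF808, ZNF611, ZNF490 and ZNF582, for which the pair was close, and ZNF763, ZNF878 (ENSMMUG00000012586), ZNF440, ZNF610 and ZNF701, for which replicate 1 was far higher. ZNF93, which silences LINE-1 elements, held 87.5 and 56.1 RPKM in the 8C embryos against at most 53.2 RPKM elsewhere. ZNF808, a repressor of MER11 elements, held 6.28 and 5.36 RPKM against at most 0.917 RPKM. Outside 8C, ZNF701 reached at most 0.769 RPKM and ZNF473, also on this list, at most 0.354 RPKM. ZNF808, ZNF701 and ZNF473 thus passed the filter only through the 8C embryos. Their place on this list, and any call of them at 8C, is no separate support.

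From GV to MII no member rose and 11 of 200 fell (limma's moderated test on log2(RPKM + 1), Benjamini-Hochberg adjusted p under 0.05 over all entries tested). Of all 14312 entries, 0.342% were called higher and 8.97% lower, so the members' 5.5% lower is below the table's share. At an unadjusted p under 0.05, 2 members were higher and 32 lower, and their median log2 change was -0.29 against -0.19 over all entries. The 11 were ZNF416, ZNF418, ZNF77, ZNF584, ZNF878 (IMMRNTR1216), ZNF274, ZNF230 (ENSMMUG00000028751), ZNF235, ZNF564, ZNF585A and ZNF541.

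ZNF274, which brings SETDB1 to the ends of zinc finger genes, stood at 23.7 and 18.0 RPKM in GV, 23.5 and 24.4 RPKM in MI and 6.58, 0.949 and 1.18 RPKM in MII oocytes. No MII oocyte reached the GV or MI values. Its log2 change from GV to MII was -2.77 (SE 0.72, adjusted p = 0.0200 by limma). ZNF418 (IMMRNTR1124) held 17.9 and 14.1 RPKM at GV and 2.51, 0 and 0.0830 RPKM at MII, a log2 change of -3.43 (SE 0.56, adjusted p = 0.00112 by limma). ZNF541, a germ cell chromatin factor, went from 1.475 ± 0.547 (SD, n = 2) to 0.0533 ± 0.0598 RPKM (SD, n = 3).

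ZNF416, ZNF418, ZNF274 and ZNF584 lie within 1 stretch near the end of the chromosome (63395188 to 64195599), and ZNF230 and ZNF235 within another (50455361 to 50733780). Most of these calls needed both GV oocytes. Without GV replicate 1 only ZNF418 was called of the 11 (adjusted p 0.0631 to 0.374 for the rest, 0.0682 for ZNF416 and 0.183 for ZNF274). Without GV replicate 2, 2 of the 11 were called, and 0.0933 was the adjusted p of ZNF274. Without MII replicate 2, 5 of the 11 were called (0.0530 to 0.165 for the rest), and with median-of-ratios scaling 4.

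From MII to 4C, 7 members rose and 4 fell, where the table's shares were 3.11% higher and 6.09% lower. With median-of-ratios scaling the members' split was 11 and 2, given without the table's shares under that scaling. The 7 were ZNF138, ZNF57, ZNF20, ZNF254, ZNF530, ZNF708 (ENSMMUG00000003686) and ZNF302 (IMMRNTR1313), and the 4 were ZNF878 (IMMRNTR1216), ZNF256, ZNF492 (ENSMMUG00000021333) and ZNF554. ZNF138 was listed at 0 in both GV oocytes and at 0.0320, 0 and 0 RPKM in MII, but at 7.67 and 5.48 RPKM in MI, between the 2. It held 10.5, 7.77 and 17.9 RPKM at 4C. The log2 change from MII to 4C was 3.61 (SE 0.47, adjusted p = 7.9e-05 by limma).

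This order of stages recurred. For 9 members (4.5%) every MI, PN, 2C and 4C library lay above every GV and MII library, and for none did all lie below. Over all entries tested the shares were 0.992% and 1.68%. The 9 were ZNF20, ZNF791, ZNF708 (ENSMMUG00000003686), ZNF91, ZNF254, ZNF138, ZNF546, ZNF766 and ZNF160 (ENSMMUG00000001106). ZNF708, ZNF91, ZNF254 and ZNF138 lie within 20919665 to 22859330, ZNF20 and ZNF791 within 11890324 to 12293245, and ZNF766 and ZNF160 within 58312064 to 59182056. Close copies can share reads, so the 9 need not be separate cases. For several of the 9 the gap was narrow or near 0. ZNF791 held 0.033 to 0.287 RPKM in the MI, PN, 2C and 4C libraries against 0 in GV and MII. The lowest of the former and the highest of the latter were 0.106 and 0.077 RPKM for ZNF546, and 1.235 and 1.144 RPKM for ZNF91. They were 2.03 and 1.86 RPKM for ZNF160, and 24.5 and 21.0 RPKM for ZNF766. ZNF20 held 0 RPKM in all 5 GV and MII oocytes, 8.86 and 9.58 RPKM in MI, and 2.16 to 8.54 RPKM in the 8 libraries from PN to 4C. The labels give no batch, so stage and any shared handling of GV and MII oocytes cannot be told apart.

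ZNF256, a KRAB repressor first found in bone marrow, was the most abundant member at MII. Its values were 117, 85.3 and 84.9 RPKM at MII, 54.0 and 61.5 RPKM at GV and 17.8, 26.1 and 33.4 RPKM at 4C, with no overlap between MII and either. Its log2 change from MII to 4C was -1.88 (SE 0.53, adjusted p = 0.03005 by limma). It missed the threshold without MII replicate 1, 2 or 3 (adjusted p 0.119, 0.0658 and 0.0672) and without 4C replicate 1 or 2 (0.135 and 0.0632). Without MII replicate 3 none of the 4 falls was called, without 4C replicate 2 1 of them, and without MII replicate 1, MII replicate 2 or 4C replicate 1 2 of them. Of the 7 rises, 3 remained called without MII replicate 1 and 4 without 4C replicate 1 or 3. ZNF138, ZNF57 and ZNF254 kept the call in all settings.

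From 4C to 8C, 45 members (22.5%) rose and 8 (4%) fell. Of all entries tested 13.9% were called higher and 10.2% lower, and the median log2 change was 0.68 over the members and 0 over the table. Numbered ZNF entries of other chromosomes gave 38 higher and 25 lower of 216, and the other entries of chromosome 19 gave 126 higher and 30 lower of 627 (20.1% and 4.78%). Those 627 include 12 entries with other zinc finger names (such as ZSCAN, ZFP or ZBTB), of which 6 rose (50%) and 1 fell (8.33%). The members' share of rises is thus near that of the chromosome they lie on. Whether these sets differ was not tested. The next counts, with 1 library left out, are of members alone, without the table's shares under the same setting. Without 8C replicate 1, 25 members were higher and 12 lower. Without 8C replicate 2, 70 were higher and 5 lower.

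ZNF486 was the most abundant 8C member (19834380 to 19860079). It held 1.65, 1.71 and 5.69 RPKM in the 4C embryos, 572 and 128 RPKM in the 8C embryos, and 144, 87.0 and 63.3 RPKM in the morulae. Both 8C values were above every 4C value, although the 8C pair lay far apart, and the log2 change was 6.23 (SE 0.63, adjusted p = 7.16e-07 by limma). ZNF763 (11680297 to 11692803) held 0, 0.217 and 0.145 RPKM at 4C and 449 and 24.1 RPKM at 8C, a change of 6.57 (SE 1.07, adjusted p = 0.000161 by limma).

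ZNF121 (IMMRNTR1085, 9438050 to 9451055) and ZNF114 (54571081 to 54576608) were the 2 leading rises in which the 8C embryos were alike. ZNF121 was listed at 0 in all 5 libraries of 2C and 4C and held 67.7 and 62.3 RPKM at 8C, then 12.5, 0 and 5.92 RPKM in morulae. ZNF114 was at 0 in all 4C embryos and held 22.9 and 35.4 RPKM at 8C, with at most 0.155 RPKM in any earlier library. Their fitted log2 changes were 6.04 (SE 0.70) and 4.88 (SE 0.55), with adjusted p = 3.54e-06 and 2.75e-06 by limma.

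The other leading rises were ZNF878 (both entries), ZNF738, ZNF440 (IMMRNTR1225), ZNF726 (ENSMMUG00000028811), ZNF320 (IMMRNTR1236), ZNF823 (ENSMMUG00000028875) and ZNF230 (ENSMMUG00000021466), with log2 changes of 3.40 to 6.58. Of these, ZNF738, ZNF320, ZNF823 and ZNF230 missed the threshold without 8C replicate 1 (adjusted p 0.0613, 0.141, 0.163 and 0.176). ZNF320 also missed it without 4C replicate 2 (0.0537) and ZNF823 without 4C replicate 1 (0.0550). ZNF91, a repressor of SVA elements in apes, went from 3.45 ± 2.01 (SD, n = 3) to 12.2 ± 9.47 RPKM (SD, n = 2) with overlapping libraries (adjusted p = 0.0385 by limma), and missed the threshold without 8C replicate 1 (0.487), 4C replicate 1 (0.0771) or 2 (0.140), or GV replicate 1 or 2 (0.0507 each). ZNF473, which takes part in histone mRNA processing, rose at low level, from 0.197 ± 0.0410 (SD, n = 3) to 1.52 ± 0.518 RPKM (SD, n = 2; adjusted p = 0.00104 by limma, 0.0777 with only these stages in the fit). It passed the filter only through the 8C embryos, with at most 0.354 RPKM elsewhere, so this call is no separate support.

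The 8 members that fell from 4C to 8C were ZNF224 (ENSMMUG00000021469), both ZNF420 entries, ZNF571, ZNF749 (ENSMMUG00000014282), ZNF773, ZNF181 (ENSMMUG00000005889) and ZNF557. ZNF420 (ENSMMUG00000014214, 43515244 to 43536078), a KRAB protein that restrains p53, was the most abundant maternal member. It held 50.3 and 98.8 RPKM at GV, 68.9, 73.0 and 48.8 RPKM at MII, 192, 132 and 189 RPKM at PN, and 258, 136 and 394 RPKM at 4C. The 8C embryos held 10.7 and 11.9 RPKM, below all 15 earlier libraries, and the morulae at most 7.25 RPKM. The log2 change from 4C to 8C was -4.29 (SE 0.68, adjusted p = 0.000124 by limma).

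ZNF224 (ENSMMUG00000021469), whose human namesake represses aldolase A, held 21.9, 22.9 and 33.8 RPKM at 4C and 0.295 and 0.241 RPKM at 8C, a change of -4.40 (SE 0.64, adjusted p = 5.03e-05 by limma). In this entry and that of ZNF420 the 8C embryos lay close together and far below all 4C embryos. ZNF224 had 3 member entries, and no other one was called from 4C to 8C. ZNF571 held 37.5, 25.8 and 30.3 RPKM at 4C and 5.61 and 0.366 RPKM at 8C. The calls of ZNF224, ZNF420 and ZNF571 held with each library left out, and those of the other 4 genes did not. ZNF749 missed the threshold without 4C replicate 1 or 3 (adjusted p 0.122 and 0.102) or 8C replicate 1 or 2 (0.152 and 0.116), and narrowly without any GV, MI or MII oocyte or PN replicate 3 (0.0507 to 0.0536). ZNF773 missed it without 4C replicate 1 or 2 (0.0606 and 0.135) or 8C replicate 1 or 2 (0.111 and 0.107). ZNF181 missed it without 4C replicate 1 or 3 (0.0655 and 0.139) or 8C replicate 2 (0.274), and ZNF557 without 4C replicate 1 or 3 (0.122 and 0.0725) or 8C replicate 1 (0.186).

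**Figure D4:**
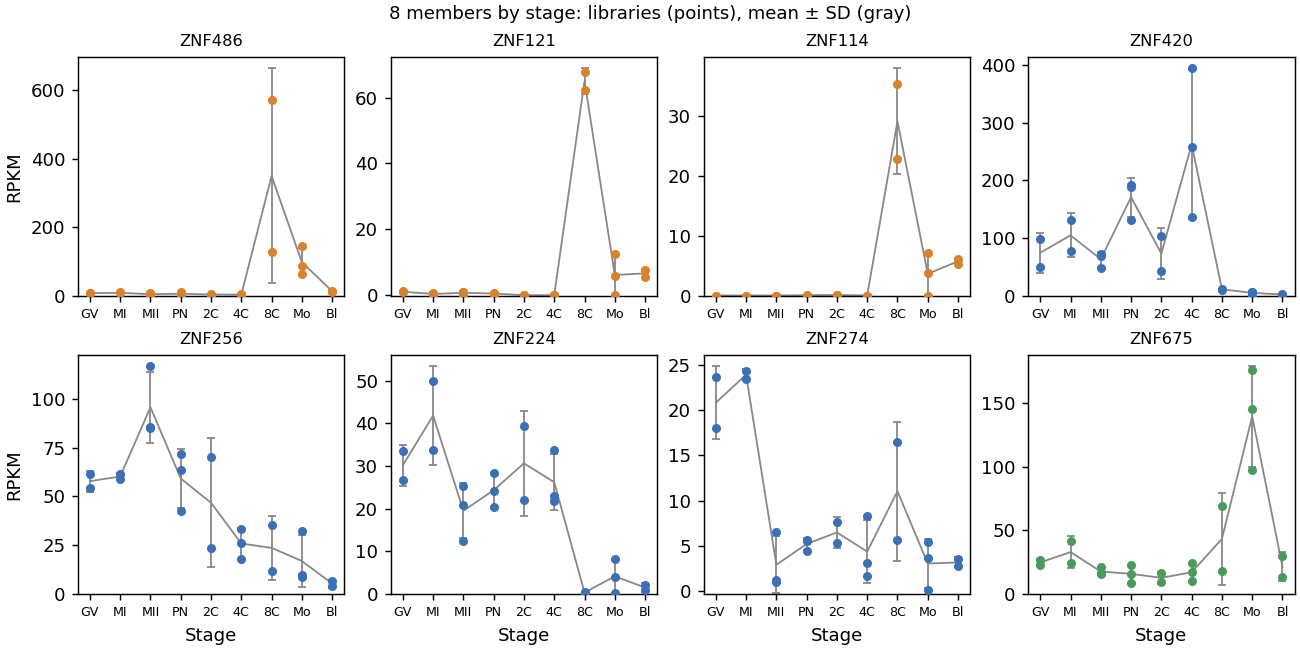
RPKM of 8 members by stage, with a point for each library, and the mean and SD of each stage in gray. ZNF486, ZNF121 and ZNF114 are near 0 up to 4C and highest at 8C. ZNF420 (ENSMMUG00000014214) and ZNF224 (ENSMMUG00000021469) drop from 4C to 8C. ZNF274 is lower in MII than in GV and MI, ZNF256 peaks at MII and ZNF675 in the morula.

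From 8C to the morula, 4 members rose and 54 (27%) fell, against 5.39% higher and 20% lower over the table. The median log2 change was -0.92 over the members and -0.38 over all entries, and 46 of 216 numbered ZNF entries elsewhere (21.3%) fell. This comparison shares its 8C libraries with the one from 4C to 8C. As there, the counts with 1 library left out are of members alone. Without 8C replicate 1, 26 members fell and 8 rose, and 24 of the 54 calls remained. Without 8C replicate 2, 70 fell and 3 rose. Without morula replicate 2, 47 fell and 7 rose.

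The 12 largest falls were ZNF320 (IMMRNTR1236), ZNF763, ZNF121, ZNF440, ZNF490, ZNF555, ZNF765, ZNF77, ZNF845 (IMMRNTR1243), ZNF416, ZNF878 (ENSMMUG00000012586) and ZNF625. ZNF490 (12245022 to 12275059) held 13.3 and 10.255 RPKM at 8C and 0.143, 0.0280 and 0 RPKM in morulae, a log2 change of -3.59 (SE 0.54, adjusted p = 6.34e-05 by limma). ZNF320 (IMMRNTR1236) went from 120.3 and 57.8 RPKM to 9.08, 0 and 1.42 RPKM (-4.87, SE 1.02, adjusted p = 0.00146 by limma). Neither overlapped between the stages, and neither lost its call in any setting. ZNF763, ZNF555, ZNF765, ZNF77, ZNF416, ZNF878 and ZNF625 missed the threshold without 8C replicate 1 (adjusted p 0.0950, 0.189, 0.190, 0.149, 0.0958, 0.258 and 0.124), and ZNF765 and ZNF845 without 8C replicate 2 (0.0569 and 0.110).

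ZNF808 also went back, from 5.82 ± 0.648 (SD, n = 2) to 0.294 ± 0.291 RPKM (SD, n = 3; adjusted p = 1.11e-05 by limma), after 0.532 ± 0.411 RPKM at 4C (SD, n = 3; adjusted p = 4.02e-05 by limma). As said above, it passed the filter only through the 8C embryos, so neither call of ZNF808 is separate support. ZNF93 went from 71.8 ± 22.2 (SD, n = 2) to 20.2 ± 14.7 RPKM (SD, n = 3; adjusted p = 0.00608 by limma), but missed the threshold without 8C replicate 1 (0.0691). The 4 rises were ZNF626, ZNF528 (ENSMMUG00000020234), ZNF675 and ZNF577. ZNF675, an inhibitor of TRAF6 signalling, held 68.9 and 17.6 RPKM at 8C and 176, 97.3 and 146 RPKM in morulae (1.92, SE 0.58, adjusted p = 0.0193 by limma), and missed the threshold without 8C replicate 2 (0.346) or morula replicate 1 (0.0531). ZNF626 held 13.2 and 6.75 RPKM at 8C and 96.1, 387 and 51.9 RPKM in morulae (3.59, SE 0.76, adjusted p = 0.00159 by limma), its highest value in the morula that stands apart.

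With only the libraries of the 2 stages in the fit, none of the 4 rises and 10 of the 54 falls from 8C to Mo were called, among them ZNF320, ZNF490 and ZNF845 of the 12 named. From the morula to the blastocyst 3 members rose (ZNF671, ZNF585A and ZNF578, IMMRNTR1031) and 6 fell (ZNF257, ZNF486, ZNF675, ZNF749, ZNF138 and ZNF611), where 12% of the table rose and 2.12% fell. With median-of-ratios scaling the split was 3 and 21, while the median of all entries moved from 0.23 to 0.07 and that of the members from -0.04 to -0.22. ZNF675 fell to 13.3 and 29.4 RPKM in the blastocysts (-2.715, SE 0.58, adjusted p = 0.00339 by limma) and ZNF486 to 15.2 and 11.2 RPKM (-2.73, SE 0.63, adjusted p = 0.00614 by limma), both below each morula. ZNF675 missed the threshold without blastocyst replicate 1 (adjusted p 0.0780) and ZNF486 without blastocyst replicate 2 (0.0559). With only the morulae and blastocysts in the fit, none of the 9 calls remained, and both genes had an adjusted p of 0.0951. Without blastocyst replicate 1, 1 of the 6 falls and 1 of the 3 rises were called, and without morula replicate 1, 10 members rose. Across all 9 stages 114 members (57%) differed by limma's F test, where 68.3% of the table did, and 100 members were called in none of the 5 comparisons.

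Other members with known roles passed no test between stages. ZNF331, an imprinted gene, stayed between 0.0580 and 8.37 RPKM in all libraries. ZNF350 (also called ZBRK1, a partner of BRCA1) had 2 entries, of which ENSMMUG00000023137 held 30.2 and 1.76 RPKM in the 8C embryos and 3.18 to 5.91 RPKM in MII oocytes. ZNF146, which has fingers without a KRAB domain, stayed at 18.2 RPKM or less. ZNF534, a repressor of HERVH elements, held 41.9 and 7.885 RPKM at 8C, 62.7 RPKM in morula replicate 2 against 15.7 and 9.99 RPKM in the other morulae, and 22.7 and 20.9 RPKM in blastocysts. In ZNF350 and ZNF534 the libraries of 1 stage thus lay far apart.

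Along the chromosome, entries whose starts lie within 1 Mb of the next formed 15 clusters. Of these, 3 held 1 member and 7 held 10 or more, with 180 members in all. The mix of classes varied from cluster to cluster. In the cluster from ZNF627 to ZNF791 (11425823 to 12293245) 15 of 20 members were of the 8C class, and in the cluster from ZNF101 to ZNF138 (19375398 to 22859330) 19 of 30 were. In the cluster from ZNF146 to ZNF573 (42676183 to 44100935) 17 of 27 members were maternal and 3 of the 8C class, and in the most distal one, from ZNF579 to ZNF584 (61601583 to 64195599), 28 of 40 were maternal and 9 of the 8C class. The first 2 mixes rested on 8C replicate 1. Without it the ZNF627 to ZNF791 cluster held 9 maternal, 5 8C and 6 later members and the ZNF101 to ZNF138 cluster 9, 7 and 14, so that 8C led in neither, while the ZNF146 to ZNF573 cluster held 18, 1 and 8 and the distal one 30, 5 and 5.

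Calls from 4C to 8C use the same 8C libraries as the classes, and 39 of the 45 rises were in the 8C class, so they are no separate support for the mix of classes. In the ZNF627 to ZNF791 cluster 9 of 20 members rose (45%) and none fell, and in the ZNF101 to ZNF138 cluster 13 of 30 rose (43.3%) and none fell. In the ZNF146 to ZNF573 cluster none of 27 rose and 3 fell (11.1%). The 40 members of the distal cluster gave 8 rises (20%) and 2 falls (5%), the 34 of the ZNF577 to ZNF331 cluster 7 rises (20.6%) and no fall, the 17 of ZNF576 to ZNF180 2 rises and 1 fall, and the 12 of ZNF317 to ZNF846 4 rises and no fall. The background is the 13.9% and 10.2% above, and the clusters were not tested against each other, since genes of a cluster are close copies and not replicates.

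Leaving out either 8C embryo kept that order at its ends. Without replicate 1, the rises were 6 of 20 (ZNF627 to ZNF791), 6 of 30 (ZNF101 to ZNF138) and none of 27 (ZNF146 to ZNF573). Without replicate 2 they were 16, 16 and 2. The ZNF627 to ZNF791 cluster summed to 1224 RPKM in 8C replicate 1 and to 142 RPKM in replicate 2, with a mean of 58.1 RPKM at 4C. The ZNF146 to ZNF573 cluster summed to 116 and 52.3 RPKM in the 8C embryos, with a mean of 386 RPKM at 4C, of which ZNF420 (ENSMMUG00000014214) alone was 263 RPKM.

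**Figure D5:**
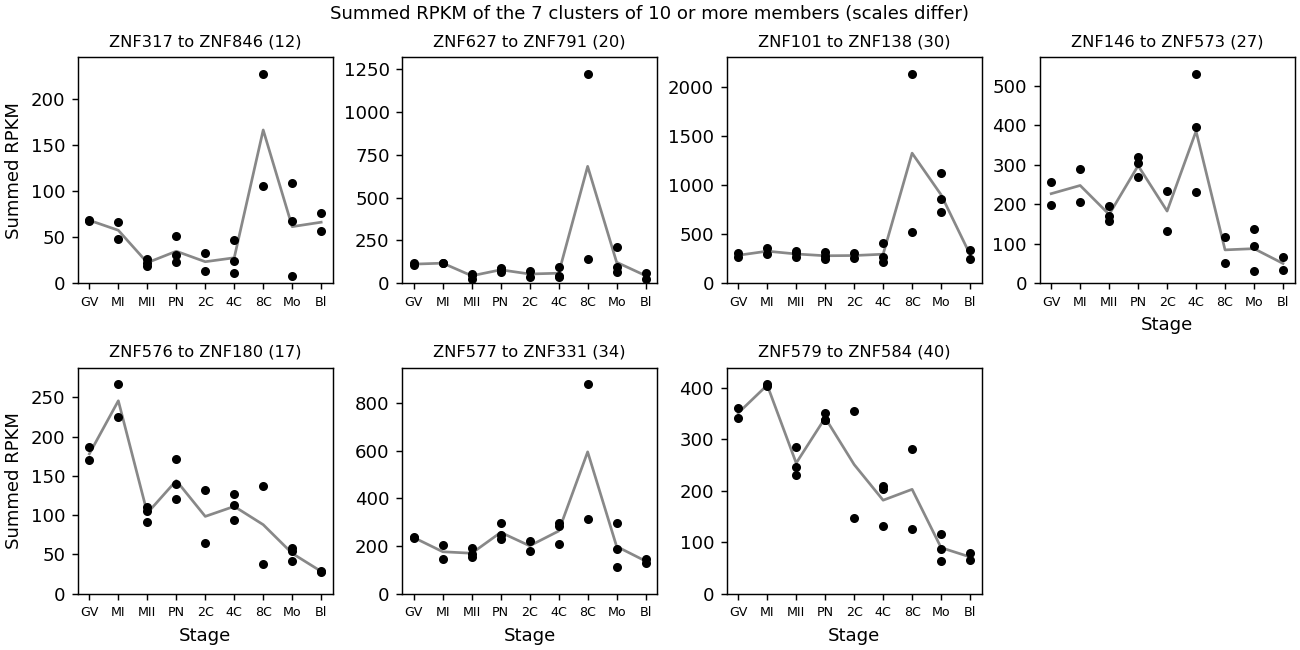
Summed RPKM of the members of each of the 7 larger clusters by stage, with a point for each library and a line through the stage means. The scales differ between panels. In the ZNF627 to ZNF791 panel the 8C points are 1224 and 142 RPKM, above the 4C mean of 58.1 RPKM, and in the ZNF146 to ZNF573 panel both 8C points lie below every 4C point.

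Entries with other names that lie between the members moved too. They were set apart by symbol alone, so genes with other zinc finger names (such as ZSCAN or ZFP) may be among them. Of 107 such entries inside the 7 larger clusters, 31 (29.0%) rose from 4C to 8C and 8 (7.48%) fell, next to 43 rises (23.9%) and 6 falls (3.33%) among the 180 members. In the ZNF101 to ZNF138 cluster 8 of 23 of them rose with a median log2 change of 1.05, beside 1.33 for the members, and in the ZNF146 to ZNF573 cluster 1 of 8 rose and 1 fell, with a median of -0.14 beside -0.02. In the ZNF317 to ZNF846 cluster 4 of 5 fell and 1 rose.

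Adjacent members of a cluster shared a class in 89 of 185 pairs (48.1%), and members of different clusters in 39.1% of 17357 pairs. The longest runs were 8 maternal members from ZNF569 to ZNF573, 7 maternal members from ZNF230 to ZNF235, and 6 of the 8C class from ZNF627 to ZNF700 and from ZNF492 to ZNF681. Overlapping spans and shared reads between copies can make neighbours alike, and their part in these shares was not tested. Median spans were 13903 bases for maternal, 12255 for 8C and 10528 for later members.

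The partners of KRAB proteins followed no single course. Of 41 names, 37 were tested, as 43 entries. Among the names, ZNF445 and ZFP57 are themselves KRAB zinc finger proteins, and the counts and shares of partners include them. From 4C to 8C 6 entries rose (CBX1, CBX3, MPHOSPH8, HDAC1 and 2 entries of ZNF445) and 7 fell (SUV39H2, 2 entries of PPHLN1, UHRF1, DNMT3A, DNMT3B and the remaining entry of ZNF445), or 14.0% and 16.3% beside the table's 13.9% and 10.2%. TRIM28 was low before 8C, with a mean of 0.231 ± 0.325 RPKM at 4C (SD, n = 3), 0.145 and 9.90 RPKM in 8C replicates 1 and 2, 9.42 ± 3.60 RPKM in morulae (SD, n = 3) and 36.0 ± 21.6 RPKM in blastocysts (SD, n = 2). It passed the threshold in none of the 5 comparisons (adjusted p = 0.0973 from 4C to 8C by limma). TRIM28 was the lower in 8C replicate 1, the embryo with the higher zinc finger sum, and whether these are linked was not tested. Other partners differed between the 8C embryos in both directions. HDAC1 held 39.478 and 12.037 RPKM in replicates 1 and 2, and CBX3 held 9.784 and 57.004 RPKM.

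SETDB1, the histone methyltransferase, stood at 6.54 ± 2.04 RPKM at 4C (SD, n = 3) and 5.66 and 6.255 RPKM at 8C, then at 2.49, 0.0210 and 4.495 RPKM in morulae and 8.85 and 7.28 RPKM in blastocysts. That last step was called (adjusted p = 0.0404 by limma), but not without morula replicate 2, the library at 0.0210 RPKM (0.138), without either blastocyst (0.207 and 0.110) or without any GV, MI or MII oocyte (0.0512 to 0.0543). HP1 beta (CBX1) rose from 7.32 ± 7.66 (SD, n = 3) to 26.1 ± 6.08 RPKM (SD, n = 2) and HP1 gamma (CBX3) from 1.44 ± 0.287 (SD, n = 3) to 33.4 ± 33.4 RPKM (SD, n = 2) between 4C and 8C, with adjusted p = 0.0163 and 0.00357 by limma. Both missed the threshold without 8C replicate 2 (0.0997 and 0.0972), and CBX1 also without 4C replicate 1 (0.0820). DNMT1, the maintenance DNA methyltransferase, fell from 215 ± 81.9 (SD, n = 2) to 4.86 ± 2.75 RPKM (SD, n = 3) between 8C and morula (adjusted p = 3.64e-08 by limma). From 8C to Mo 4 partner entries rose (9.30%) and 7 fell (16.3%), against 5.39% and 20% of the table, and from Mo to Bl 7 rose (16.3%) and 3 fell (6.98%), against 12% and 2.12%. With median-of-ratios scaling these became 7 and 6, and 6 and 6. Before scaling, the falls from 8C to Mo include entries of ZNF445, and the rises from Mo to Bl include ZFP57. The 1 rise from GV to MII (2.33%, against 0.342% of all entries) and the 1 rise and 2 falls from MII to 4C (2.33% and 4.65%, against 3.11% and 6.09%) were all lost with that scaling.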

How the data were processed

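The authors deposited 1 table of RPKM values for 22 libraries, each from 1 oocyte or embryo, with a position per entry. The submitters' processing notes name the build Mmul_8.0.1; the aligner and counter are not given in the sources used here, and whether the deposited positions are of that build was not checked. RPKM values are not counts, so log2(RPKM + 1) was fitted with limma 3.58.1 (R 4.3.3; 9 stage means, 13 residual degrees of freedom, robust empirical Bayes with trend) on the 14312 entries at 1 RPKM or more in at least 2 libraries, with Benjamini-Hochberg adjustment over all of them and a threshold of 0.05. Log2 changes are on that scale and understate changes of low genes. The code was tested on simulated data. Reads per library were estimated from the steps of low values in short entries (468 of 510 values within 0.05 of a whole read). Members and lists were chosen with earlier results of these data known. Named members are the 12 largest changes in each direction among called members whose libraries do not overlap, a fixed panel, the 5 highest of each class, and partners. Alternatives were a pseudocount of 0.1, other filters, median-of-ratios scaling, a replicate block, fits of only the 2 stages compared and each library left out. Sequences, protein features and promoters were not analysed here.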

Additional observations from a re-analysis of the deposited data

How the results depend on the processing

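Of 393 recomputed counts, 339 stayed within 1.5 times the reported one, and no named change reversed. Neither is a strict check. Most named changes were picked because their libraries do not overlap, so leaving out 1 library could not reverse them. Leaving out a library of a stage outside a comparison keeps its log2 change as it was. Of 74 named changes, 20 kept their call under every alternative and 47 lost it without some library. The calls for 4C to 8C and 8C to Mo depend on 8C replicate 1. Median-of-ratios scaling moved the median log2 change of all entries by 0.14 (GV to MII), 0.13 (8C to Mo) and -0.16 (Mo to Bl). It gave 4 members lower from GV to MII, 11 higher and 2 lower from MII to 4C, 8 higher from 8C to Mo, 21 lower from Mo to Bl, 59 maternal and 49 later members, and, for partners, 0 higher from GV to MII, 0 higher and 0 lower from MII to 4C, 7 higher from 8C to Mo and 6 lower from Mo to Bl. A pseudocount of 0.1 gave 6 lower from GV to MII and 5 higher from Mo to Bl, and no filter gave 2 lower from MII to 4C. Fits of only the 2 stages gave 3 higher and 34 lower (GV to MII), 17 higher and 9 lower (MII to 4C), 0 higher and 10 lower (8C to Mo) and 0 higher and 0 lower (Mo to Bl). With 1 library left out the counts ranged from 0 to 1 higher and 1 to 16 lower (GV to MII), 3 to 14 and 0 to 8 (MII to 4C), 25 to 70 and 5 to 12 (4C to 8C), 3 to 8 and 26 to 70 (8C to Mo), 2 to 10 and 1 to 10 (Mo to Bl), and from 38 to 99 members of the 8C class, 82 to 114 maternal and 19 to 48 later. All these counts are of members or partners alone, without the table's shares under the same setting. The cause of these changes was not tested. Leaving out each library for the named partners SETDB1, CBX1, CBX3 and DNMT1 was chosen after seeing the data, and DNMT1 kept its call each time. The median correlation of deviations was 0.007 over 78 pairs of libraries with the same replicate number (-0.184 to 0.324). It was -0.006 over 136 other pairs (-0.324 to 0.244). A median over all stages cannot show whether some stages were paired. With the replicate number as a block, 44 members were higher and 7 lower from 4C to 8C and 4 and 54 from 8C to Mo. Depth is known here by estimate alone, and its effect on members near 1 RPKM was not tested.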
